A study of Drosophila melanogaster with 3 samples.

Results

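The MCM regions described here are those of the interior of 3L, the left arm of chromosome 3 of Drosophila melanogaster, and are the 1203 regions of the whole-series list, of 7029 in all, that start between 2000001 and 22500000 on FlyBase release 5.1. The interval is 20.5 Mb long, runs from the telomere side to the centromere side and leaves out about 2 Mb at each end of the arm. In the same interval, replicate 1 held 1791 of its 10679 MCM peaks and replicate 2 held 1415 of its 8553. MCM was recovered by chromatin immunoprecipitation from asynchronous cultures of Kc167, a female line of genotype se/e derived from late-stage embryos, with a mouse monoclonal antibody against purified yeast MCM that targets the Walker B motif of the MCM2-7 complex. The design has 2 MCM immunoprecipitations, from extractions 1 and 2 (replicates 1 and 2), and 1 input from extraction 3, which was not analysed here. Nothing in the labels ties the extractions to separate cultures, and the spread between them may be technical. Read counts were not used here and the depth behind each list is unknown. A peak was called by the authors with a score whose unit is not stated.

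The MCM2-7 complex is the helicase core of the replication fork. In G1, the origin recognition complex and its partners load it onto DNA in an inactive form, and only part of the loaded complexes are later activated as origins. Peaks of MCM in an asynchronous culture therefore mark places where the complex sits on DNA in the population and do not by themselves mark fired origins. Fly origins have no strict sequence signature, and loading tends to be spread over zones.

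On 3L the 2 extractions gave MCM maps of the same form with different yields. Replicate 1 had 87.4 peaks per Mb of the interval and replicate 2 had 69.0, a mean of 78.2 ± 13.0 (SD, n = 2). Peaks covered 325 kb in replicate 1 and 243 kb in replicate 2, or 1.59% and 1.19% of the interval. The whole-series list had 58.7 regions per Mb and covered 306 kb. The called peaks thus made up a small part of the interval. At the median, a peak of replicate 1 measured 138 bp (interquartile range 78.5 to 238 bp) and a peak of replicate 2 measured 133 bp (73 to 228 bp), and the regions of the whole-series list had a median of 209 bp (135 to 320 bp). The region that first met the rule started at 2163723 and was 220 bp wide with a score of 2.41, while the last one before it started at 1969945, was 185 bp wide and scored 2.19. At the centromere side, the last region inside started at 22400816, was 370 bp wide and scored 3.66, and the next one outside started at 22641348, was 125 bp wide and scored 1.95.

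The MCM region with the highest score on this part of 3L was 3L:8660910-8661296, at 387 bp. It scored 9.54 in replicate 1 and 7.92 in replicate 2, and ranked first in both among the 1203 regions. The second was 3L:6982110-6982212, at 103 bp, with 8.09 in replicate 1 and 6.90 in replicate 2. The third was 3L:8756781-8756839, which was only 59 bp wide and scored 6.65 and 6.98 in replicates 1 and 2, so that replicate 2 was the higher there. These were followed by 3L:9454129-9454345, with 7.32 and 5.54 in replicates 1 and 2, and by 3L:4413837-4414116, with 6.53 and 5.91. Of the leading 10 regions, all 10 were among the 50 highest in each replicate. Their region scores are the means of their replicate scores, so high ranks in the replicates follow in part from the choice. The leading region, 3L:8756781-8756839, 3L:9454129-9454345 and 3L:9089956-9090105 lay between 8660910 and 9454345, and the others were spread over the arm, the farthest at 3L:21027560-21027793. The remaining regions of the leading 10 were 3L:11063516-11063845, 3L:2417754-2418145 and 3L:16476582-16476873, and all 10 were 59 to 392 bp wide.

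The widest MCM regions were not the ones with the highest scores. The widest was 3L:11357525-11359009, at 1485 bp, where replicate 1 had 1 peak and replicate 2 had 3. Its score of 3.15 ranked 282 of the 1203. The next were 3L:13481451-13482640 at 1190 bp (score rank 534), 3L:14752311-14753492 at 1182 bp (rank 145), 3L:3389120-3390294 at 1175 bp (rank 711) and 3L:15097142-15098201 at 1060 bp (rank 65). None of these 5 was among the leading 10 by score. In all, 117 regions (9.73%) were at least 500 bp wide, against 8.80%, 9.84% and 13.8% in the interiors of 2L, 3R and X.

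Over all regions of the interval, wider ones did score higher. When the 1203 regions were ranked by width into 5 classes of about equal size, the median score was 2.11 in the narrowest class (17 to 124 bp), 2.25, 2.55 and 2.73 in the classes that followed and 2.96 in the widest (351 to 1485 bp). The replicate scores of the same regions, which are not separate from the region scores, showed the same order of the end classes. The medians were 2.23 in the narrowest and 3.22 in the widest for replicate 1, and 1.92 and 2.71 for replicate 2. Spearman's rho between width and score was 0.42 over the 1791 peaks of replicate 1 and 0.40 over the 1415 of replicate 2. Width and score come from the same reads of the same library, and peaks are not replicates, so these values describe the lists only.

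Most of the MCM peaks on 3L were found by both extractions. In replicate 1, 1209 of 1791 peaks had an overlap of 1 bp or more with replicate 2, which is 67.5% (exact Clopper-Pearson 95% interval 65.3% to 69.7%), against 66.4% of all its peaks in the series. In replicate 2, 1226 of 1415 peaks overlapped replicate 1, which is 86.6% (84.8% to 88.4%), against 84.4% of all its peaks. The shares on 3L were thus near those of the whole lists. They are the 2 directions of 1 overlap, and the intervals cover counting error only. Shared peaks were wider, with a median of 189 bp in replicate 1, against 64.5 bp for its unshared peaks. The corresponding medians were 154 bp and 43 bp in replicate 2. The share climbed with width. In replicate 1 it was 20.3% in the narrowest of 5 equal classes (1 to 63 bp) and 96.4% in the widest (272 to 1483 bp), and in replicate 2 it was 55.1% (1 to 62 bp) and 100% (256 to 1053 bp, all 283 peaks, exact lower limit 98.7%). All 102 peaks of 500 bp or more in replicate 1 and all 60 in replicate 2 were shared. A wider peak also has more bases with which to overlap another. At the other end, 123 peaks of replicate 1 were under 20 bp, of which 9 were shared, and 105 of replicate 2, of which 50 were shared.

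**Figure D1:**
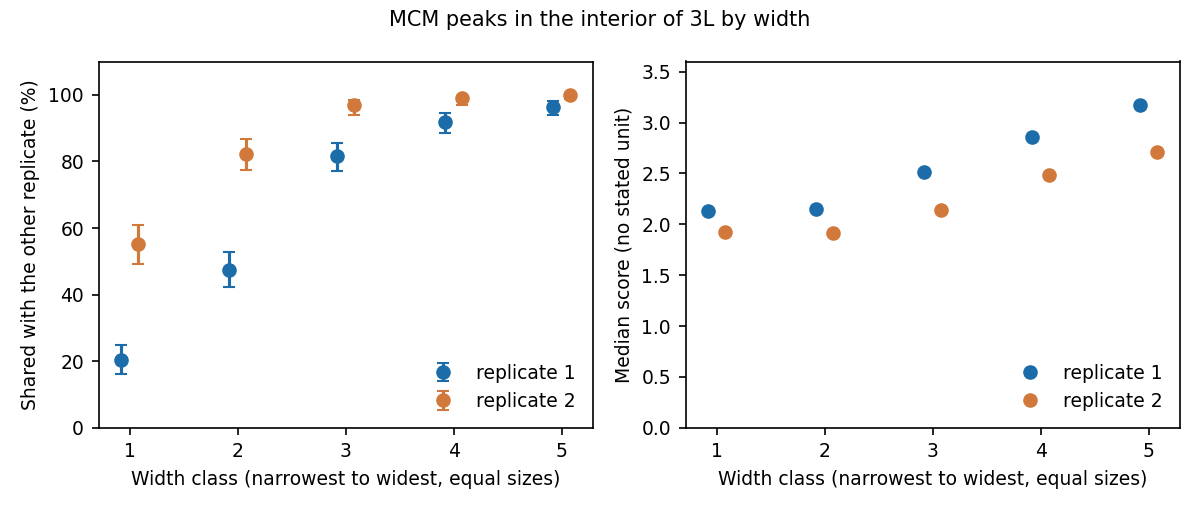
The left panel plots the percentage of MCM peaks in the interior of 3L that overlapped a peak of the other replicate, with exact 95% intervals, and the right panel the median score without a stated unit, both by class of peak width (5 classes of equal size) from narrowest to widest. Sharing was 20.3% and 55.1% in the narrowest class of replicates 1 and 2 and 96.4% and 100% in the widest, and the median score was higher in the widest class in both.

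The regions of the whole-series list were mostly pairs of peaks, 1 from each extraction. Of the 1203 regions, 1175 (97.7%) held exactly 1 peak of each replicate, 22 held more than 1 peak of replicate 2 and 6 held 2 of replicate 1. In the 1175 pairs the midpoints lay a median of 15.0 bp apart (interquartile range 6.50 to 32.5 bp, at most 260.0 bp). Both peaks of a region had to overlap, so their midpoints could lie no farther apart than their widths allow. Peaks without an overlap are not in these values, and of them 229 of 582 in replicate 1 and 124 of 189 in replicate 2 lay within 1 kb of a peak of the other replicate. The stretch common to both peaks made up a median of 73.2% of the region. The replicate 1 peak was the wider of the pair in 828 of 1175 cases (70.5%), with medians of 185 bp in replicate 1 and 154 bp in replicate 2. Spearman's rho between the widths of the pairs was 0.77. For the scores of all 1203 regions it was 0.86, and these values share the positions at which both lists had a call. The 28 regions with more than 1 peak of a replicate had a median width of 609 bp.

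Scores were in general higher in replicate 1. Its score was the higher one in 1062 of 1203 regions (88.3%), with a median log2 ratio of replicate 1 to replicate 2 of 0.24 (interquartile range 0.10 to 0.38). The share was 90.2% in the interior of 2L, 81.7% in that of 3R and 89.0% in that of X. In 3 regions of 3L the deposited scores differed by at least a factor of 2, and all 3 were higher in replicate 1. They were 3L:10892412-10892561 (4.22 in replicate 1 and 1.93 in replicate 2), 3L:6682189-6682298 (4.22 and 2.06) and 3L:10879121-10879291 (3.11 and 1.55). The regions that leaned most to replicate 2 were 3L:13995203-13995579, with 2.44 in replicate 1 and 4.22 in replicate 2, 3L:4232904-4232937, with 2.49 and 3.91, and 3L:6899957-6900081, with 2.06 and 2.88. In the second of these the replicate 2 peak was 3 bp wide.

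The deposited scores were not continuous. In replicate 1 the 1791 peaks of the interval had 1269 different scores, and 44.6% of the peaks shared their exact score with another. The most frequent score was 2.53, held by 23 peaks, followed by 1.69 with 17 peaks and 3.38 with 15. These are 3, 2 and 4 times a step of 0.845. In replicate 2 the step was 0.719, and 21, 9 and 9 peaks lay at 3, 2 and 4 times it, that is at 2.16, 1.44 and 2.88. Of the 43 scores held by at least 4 peaks in replicate 1, 33 were simple fractions of its step (denominator up to 12, relative tolerance 4e-05), and in replicate 2 it was 23 of 28. The step differed between arms. It was 0.862 on 2L, 0.801 on 3R and 0.871 on X in replicate 1, and 0.726, 0.709 and 0.733 on these arms in replicate 2. The log2 ratio of the steps of replicates 1 and 2 was 0.23 on 3L, 0.25 on 2L, 0.17 on 3R and 0.25 on X. The median log2 ratio of the region scores was 0.24 on 3L, 0.27 on 2L, 0.18 on 3R and 0.23 on X, within 0.02 of the ratio of the steps on each of the 4 arms. The 88.3% of regions of 3L with a higher score in replicate 1 is a share before the step is taken off. The 3 regions higher in replicate 1 by at least a factor of 2 had log2 ratios of 1.13, 1.04 and 1.01. With the ratio of the steps on 3L taken off, none of these would reach that factor. In 3L:13995203-13995579, at -0.79, the factor would then be passed toward replicate 2. Scores are therefore given here beside the step where arms are compared.

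**Figure D2:**
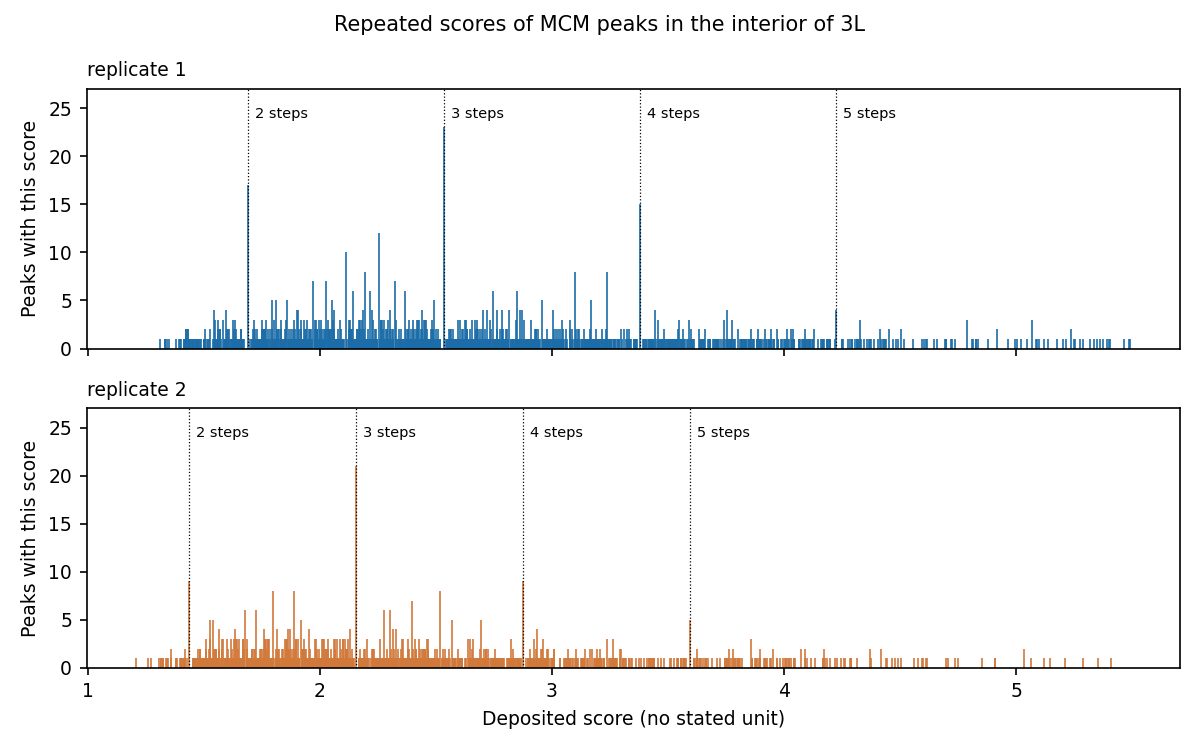
The plot gives the number of MCM peaks in the interior of 3L at each deposited score up to 5.5 (no stated unit), with replicate 1 above and replicate 2 below. Dotted lines mark 2, 3, 4 and 5 times the step, which was 0.845 in replicate 1 and 0.719 in replicate 2, and the tallest bars stand at 3 times the step in both.

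Along the arm, the count of MCM peaks per megabase varied by a factor of 2.16 in replicate 1 and 2.52 in replicate 2, without a steady trend from the telomere side to the centromere side. Over 20 full windows of 1 Mb, replicate 1 had 55 to 119 peaks with a median of 87.5, replicate 2 had 42 to 106 with a median of 66, and the whole-series list had 39 to 86 regions with a median of 59. The window with most regions was 3L:3000001-4000000, with 86 regions, 118 peaks in replicate 1 and 106 in replicate 2. Next came 3L:16000001-17000000, with 81 regions (119 and 90 peaks in replicates 1 and 2), and 3L:11000001-12000000, with 80 (103 and 97). The window with fewest was 3L:6000001-7000000, with 39 regions and with 55 and 42 peaks, the lowest count in both replicates. The next were 3L:13000001-14000000, with 41 regions (58 and 47 peaks), and 3L:10000001-11000000, with 43 (70 and 53 peaks). Rich and poor megabases lay side by side, since 3L:10000001-11000000 adjoined 3L:11000001-12000000. The variance of the counts was 4.04 times their mean in replicate 1 and 4.60 times in replicate 2.

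In 4 equal segments, counted from the telomere side, replicate 1 had 80.6, 94.0, 83.1 and 91.7 peaks per Mb and replicate 2 had 64.0, 74.1, 63.4 and 74.5. In both replicates the second and the last segment were above the other two. The median width stayed between 133 and 146 bp in the segments of replicate 1 and between 122 and 137 bp in those of replicate 2. The share of replicate 1 peaks found in replicate 2 was 65.6%, 65.4%, 68.3% and 70.6% over the segments, and that of replicate 2 peaks found in replicate 1 was 84.1%, 84.7%, 90.2% and 87.7%.

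**Figure D3:**
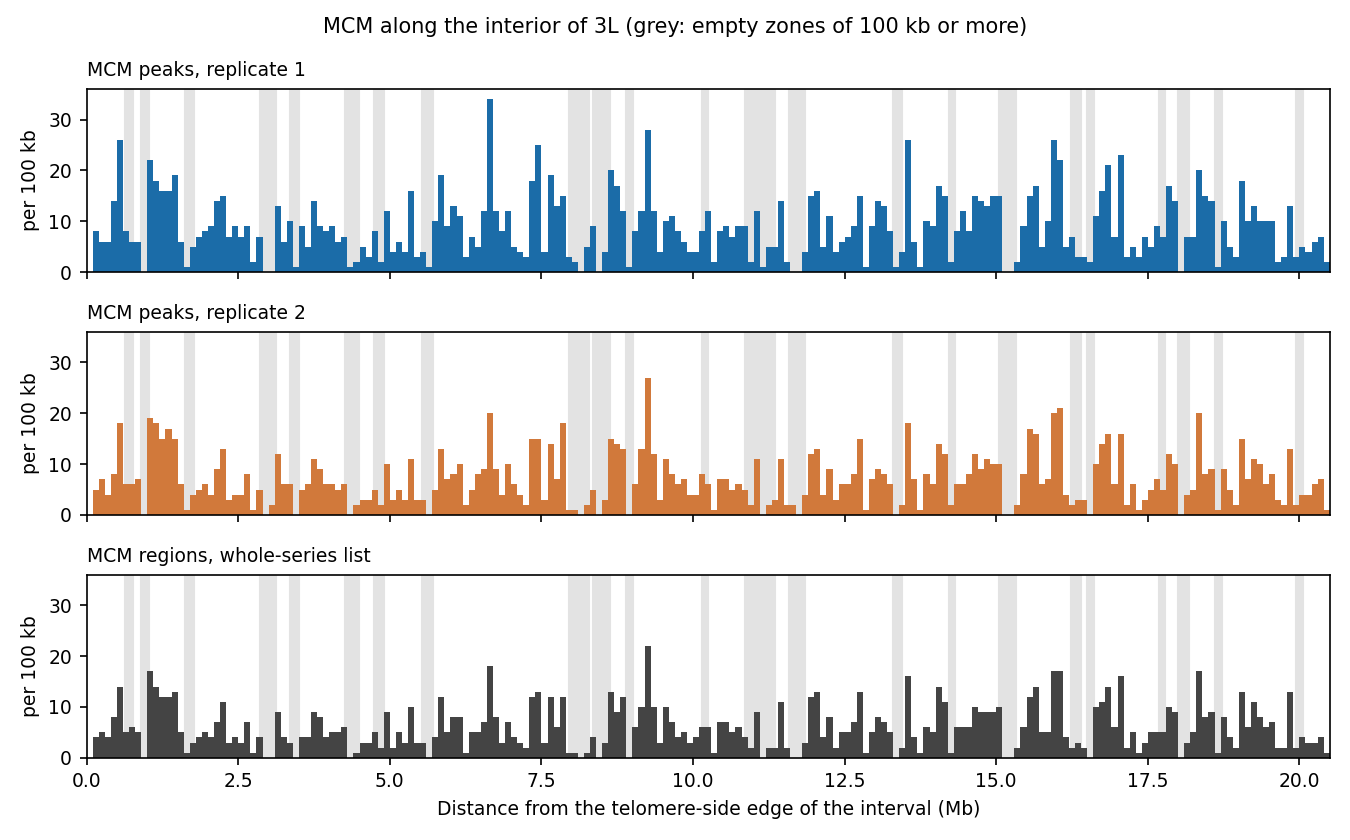
Bars give the number of MCM peaks (replicates 1 and 2) or regions (whole-series list) per 100 kb against the distance in Mb from the telomere-side edge of the interval, and grey bands are the 27 empty zones of 100 kb or more of the whole-series list. The tallest bar is 34 peaks in replicate 1, 27 in replicate 2 and 22 regions in the whole-series list, and the bars rise and fall together in the 3 panels.

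At the scale of 100 kb the variance of the counts was 4.57 times their mean in replicate 1 and 3.90 times in replicate 2. Against the values at 1 Mb, it was higher in replicate 1 and lower in replicate 2. The other interiors had higher values at 100 kb in both replicates. They were 4.89 and 4.22 on 2L, 4.77 and 4.05 on 3R, and 5.12 and 4.60 on X in replicates 1 and 2. Of the 205 windows of 3L, the median held 8 peaks of replicate 1, 6 of replicate 2 and 5 regions. As much as 50% of the regions fell in the 49 fullest windows, which are 23.9% of all. There were 11 windows without a peak in replicate 1, 16 in replicate 2, and 9 without a peak in either. The fullest was 3L:11200001-11300000, with 22 regions and with 28 and 27 peaks in replicates 1 and 2. Next came 3L:8600001-8700000, with 18 regions and an uneven 34 and 20 peaks, and 4 windows tied at 17 regions. These were 3L:3000001-3100000 (22 and 19 peaks in replicates 1 and 2), 3L:17900001-18000000 (26 and 20), 3L:18000001-18100000 (22 and 21) and 3L:20300001-20400000 (20 and 20). The counts of the replicates went together over the 205 windows, and Pearson's r and Spearman's rho were both 0.94. Peaks shared by both lists enter both counts. Over the unshared peaks alone, r was 0.42 and rho 0.45.

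Neighbouring MCM peaks on 3L were often close. Gaps between neighbours had a median of 3363 bp in replicate 1, against 4393 bp in replicate 2. The mean gaps were 11.2 and 14.1 kb, so the longer gaps took much of the length. The smallest gap was 200 bp in both replicates, on 3L as in the interiors of 2L, 3R and X, so it is not particular to 3L. Of 1790 gaps in replicate 1, 521 were under 1 kb, 516 from 1 to 5 kb, 475 from 5 to 20 kb, 256 from 20 to 100 kb and 22 at least 100 kb. In replicate 2, the numbers were 378, 363, 390, 258 and 25 of 1414. Gaps of 20 kb or more made up 65.6% of the interval in replicate 1 and 71.5% in replicate 2. A neighbour within 1 kb was found for 48.4% of the peaks in replicate 1 and 45.1% in replicate 2.

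The width of MCM peaks on 3L differed with the distance to the nearest neighbour in replicate 1, and less so in replicate 2. Replicate 1 peaks with a neighbour within 1 kb, 867 in number, had a median width of 153 bp, against 132 bp at 1 to 5 kb, 117 bp at 5 to 20 kb and 125 bp for the 71 peaks with no neighbour within 20 kb. In replicate 2 the medians were 140 bp, 128 bp, 112 bp and 138 bp. Peaks of 3L with a neighbour within 1 kb and those without one within 20 kb were thus of about the same width there. In the other interiors the former were wider in replicate 2 as well. Their medians were 142 and 111 bp on 2L, 146 and 119 bp on 3R, and 158.5 and 102.5 bp on X. On 3L the median score was 2.58 with a neighbour within 1 kb and 2.51 without one within 20 kb in replicate 1. In replicate 2 it was 2.33 and 2.16. Sharing did not separate these classes in the same way in both lists. It was 70.2% within 1 kb and 64.8% over 20 kb in replicate 1, but 86.5% and 88.5% in replicate 2.

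Runs of MCM were defined as 5 or more regions or peaks no more than 5 kb from one to the next. There were 35 in the whole-series list, which held 233 regions (19.4%) in 1.80% of the interval. Replicate 1 had 89 runs with 36.1% of its peaks and replicate 2 had 61 with 28.3%. Of these, 51 runs of replicate 1 (57.3%) overlapped a run of replicate 2, and 51 of replicate 2 (83.6%) overlapped a run of replicate 1. Most runs were short, since 15 held 5 regions and 7 held 6, and the median span was 8.56 kb. The longest stood apart. It was 3L:8660910-8698603, with 17 regions in 37.7 kb, and began with the region of the highest score. Its regions were 128 to 672 bp wide with a median of 424 bp, against 209 bp over the whole interval, and were 334 to 4879 bp apart. Their scores ranged from 1.41 to 8.73 with a median of 2.59, close to the 2.51 of the interval. Replicate 1 had 29 peaks in this stretch, of which 12 were unshared, and replicate 2 had 18, of which 1 was unshared. In replicate 1 alone the run went on to 8701404 and held 31 peaks.

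**Figure D4:**
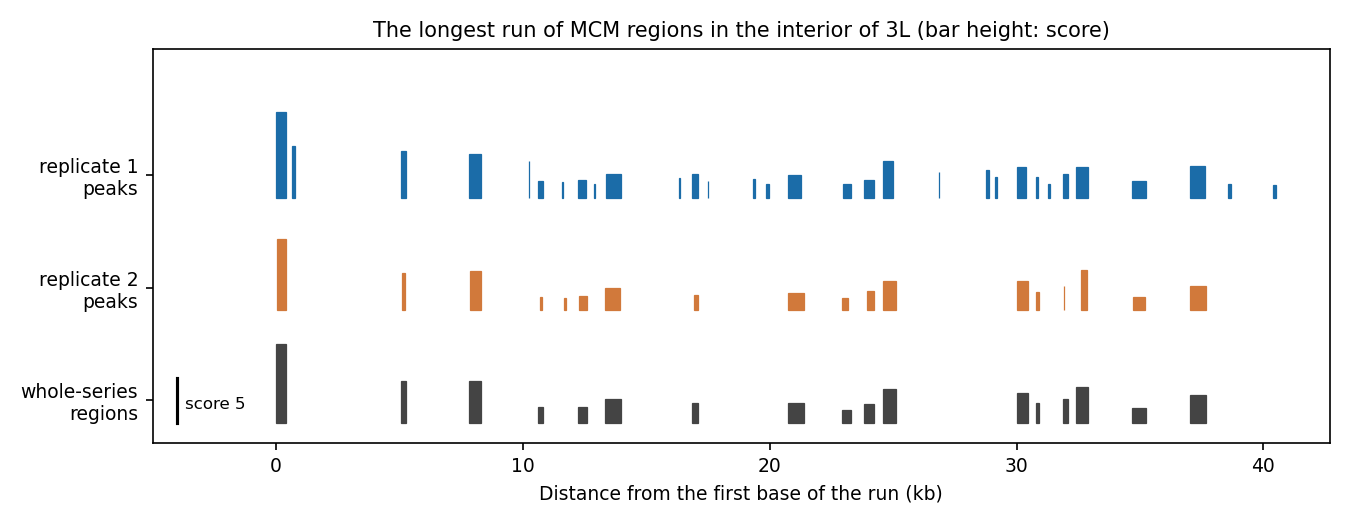
MCM peaks of replicates 1 and 2 and regions of the whole-series list in the longest run of the interior of 3L, drawn to scale against the distance in kb from the first base of the run, with bar height as the deposited score. The leftmost bar is the tallest in all 3 rows, and replicate 1 has 29 peaks between the ends of the run, against 18 in replicate 2 and 17 regions.

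The other leading runs were smaller. 3L:11277303-11296106 held 10 regions in 18.8 kb, with 11 peaks in replicate 1 and 14 in replicate 2. 3L:16995298-17009039 held 10 in 13.7 kb, with 12 and 11 peaks. 3L:19065467-19085075 held 9 in 19.6 kb and had 9 peaks in each replicate, all of them shared. 3L:20377522-20397469 held 9 in 19.9 kb, with 10 and 11 peaks. Regions inside runs had a median width of 236 bp, against 202 bp outside, and the same order was seen among the peaks of replicate 1 (147 and 131 bp) and of replicate 2 (151 and 127 bp). Runs lay a median of 504 kb apart. The longest stretch without one was 3L:11347562-13995202, at 2.65 Mb, which still held 117 regions.

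Empty zones, that is gaps of at least 100 kb between neighbouring regions of the interval, numbered 27 and made up 4.24 Mb or 20.7% of the interval. Gaps that cross an end of the interval were not counted, although no region lay between 1970129 and 2163723 or between 22401185 and 22641348. Replicate 1 alone had 22 and replicate 2 had 25, with 3.20 and 3.79 Mb. The longest was 3L:17044527-17332374, at 288 kb, in which replicate 1 had 1 peak and replicate 2 none. Its edge lay 35.5 kb from the end of the run 3L:16995298-17009039. The next were 3L:4854283-5118460 at 264 kb (1 and 4 peaks in replicates 1 and 2), 3L:13578837-13838479 at 260 kb (0 and 2), 3L:6257811-6488666 at 231 kb (1 and 0) and 3L:10083373-10278098 at 195 kb (2 and 1). Empty zones gathered in some places. They took 658 kb of 3L:10000001-11000000 and 568 kb of 3L:13000001-14000000, but no base of 3L:8000001-9000000 or of 3L:14000001-15000000.

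The zones were poor in unshared MCM peaks too. All the zones together held 38 unshared peaks of replicate 1, or 8.97 per Mb, against 33.5 per Mb in the rest of the interval, and 14 of replicate 2, or 3.30 per Mb, against 10.8. In 4 of the 27 zones neither replicate had a peak. The 53 regions that bordered a zone were narrower than the other 1150, with median widths of 161 and 211 bp, and this held for the peaks within them in replicate 1 (151 and 192 bp) and in replicate 2 (125 and 158 bp). Their median scores were 2.47 and 2.51. No input values were used, so an absence of MCM and stretches at which no peak could be called cannot be told apart.

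Only 1 region lay between 2 empty zones. It was 3L:10083166-10083372, with 121 kb free before it and 195 kb after it, and it was the most isolated on this part of the arm. It scored 2.23 in replicate 1 and 2.04 in replicate 2, and the peak was 66 bp wide in replicate 1 and 158 bp in replicate 2. The next most isolated were 3L:20614895-20615082 (81.3 and 108 kb free on its sides), 3L:11911434-11911577 (84.7 and 74.6 kb), 3L:13578752-13578836 (72.2 and 260 kb) and 3L:9961481-9961711 (68.8 and 121 kb). Each of the 5 consisted of 1 peak of each replicate, and their scores of 2.11 to 3.04 lay within the interquartile range of the interval, 2.08 to 3.10. In all, 86 regions (7.15%) had no other region within 20 kb.

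The interior of 3L was set beside the interiors of 2L, 3R and X, which were bounded in the same way and are 18.9, 23.8 and 18.4 Mb long. Its density of 78.2 ± 13.0 peaks per Mb (SD, n = 2) stood beside 77.8 ± 13.1 (SD, n = 2) in the other 3 together, a ratio of 1.01 ± 0.00237 (SD, n = 2). It lay between the single arms, with ratios of 1.16 ± 0.0259 to 2L, 1.03 ± 0.00131 to 3R and 0.861 ± 0.00761 to X (SD, n = 2 each). The median width was 136 ± 3.54 bp on 3L and 134 ± 0.707 bp on the others, and the median gap 3878 ± 728 bp and 3746 ± 731 bp (SD, n = 2 each). The median score was 2.53 and 2.26 on 3L in replicates 1 and 2, against 2.58 and 2.33 on the others, a ratio of 0.975 ± 0.0101 (SD, n = 2). In steps of the arm it was 3.0 and 3.14 on 3L, against 3.07 and 3.23, a ratio of 0.974 ± 0.00273 (SD, n = 2). With 2 replicates a side, an exact two-sided permutation test cannot give a p below 0.333, and the arms share their libraries. The exact unpaired permutation p was 0.667 for density, gap and score and 1.00 for width (n = 2 each, Benjamini-Hochberg adjusted p of 0.917, 0.917, 0.917 and 1.00 over 11 measures). Within a library, the ratio of 3L to the other interiors was 1.004 and 1.008 for density, 1.04 and 1.03 for gap and 0.982 and 0.967 for score in replicates 1 and 2, on the same side of 1 in both, while for width it was 1.04 and 0.993. With the values of each library as a pair, the exact permutation p was 0.5 for density, gap and score, the smallest that 2 pairs can give, and 1.00 for width (n = 2 pairs, adjusted p of 0.688, 0.688, 0.688 and 1.00 over the 11 measures).

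In the shares of peaks in runs and with a neighbour within 1 kb, 3L lay between 2L and X. In the SD of the gaps over their mean it did not. That value was 1.89 on 3L, against 1.96 on 2L, 1.89 on 3R and 2.08 on X (means of 2 replicates). The percentage of peaks in runs was 32.2 ± 5.52 on 3L, against 32.1 ± 7.11 on the others together (SD, n = 2 each), and that of peaks with a neighbour within 1 kb was 46.7 ± 2.35, against 47.6 ± 3.91. Single arms lay to either side of it, and peaks in runs made up 26.8% ± 6.30 on 2L, 29.9% ± 7.74 on 3R and 38.4% ± 7.19 on X (SD, n = 2 each). The ratio of 3L to the arm was 1.21 ± 0.0780 for 2L, 1.09 ± 0.0967 for 3R and 0.840 ± 0.0135 for X in this percentage, and 1.39 ± 0.182, 1.14 ± 0.110 and 0.776 ± 0.0216 in runs per Mb (SD, n = 2 each). For peaks with a neighbour within 1 kb it was 1.06 ± 0.0158 for 2L, 1.00 ± 0.0333 for 3R and 0.917 ± 0.0402 for X (SD, n = 2 each). Empty zones, at the limit of 100 kb, took less of 3L. In the replicate lists they made up 15.6% and 18.5% of the interval in replicates 1 and 2, against 19.0% and 23.5% of the other interiors, a ratio of 0.804 ± 0.0255 (SD, n = 2). The mean was 17.1% ± 2.04 on 3L, against 24.8% ± 4.72 on 2L, 19.1% ± 2.54 on 3R and 20.3% ± 2.52 on X (SD, n = 2 each), and 3L was lowest in both replicates. The exact permutation p was 0.333 (n = 2 a side), the smallest the design can give, with an adjusted p of 0.917 over the 11 measures. No difference could pass with so few replicates, so the test cannot decide on this one. Paired by library, with ratios of 0.822 and 0.786 in replicates 1 and 2, the exact p was 0.5, again the smallest possible. The number of zones per 10 Mb gave the same p, with 11.5 ± 1.03 on 3L and 14.3 ± 1.97 on the others (SD, n = 2 each). The rank of 3L depended on the limit. Gaps of 20 kb or more took 65.6% and 71.5% of 3L in replicates 1 and 2. They took less of X (62.8% and 69.6%) and more of 2L (71.0% and 76.6%) and 3R (68.0% and 73.9%). Windows of 100 kb without a peak made up 5.37% and 7.80% on 3L. They were less frequent on 3R (5.04% and 6.30%) and X (4.89% and 7.61%) and more frequent on 2L (7.41% and 9.52%).

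**Figure D5:**
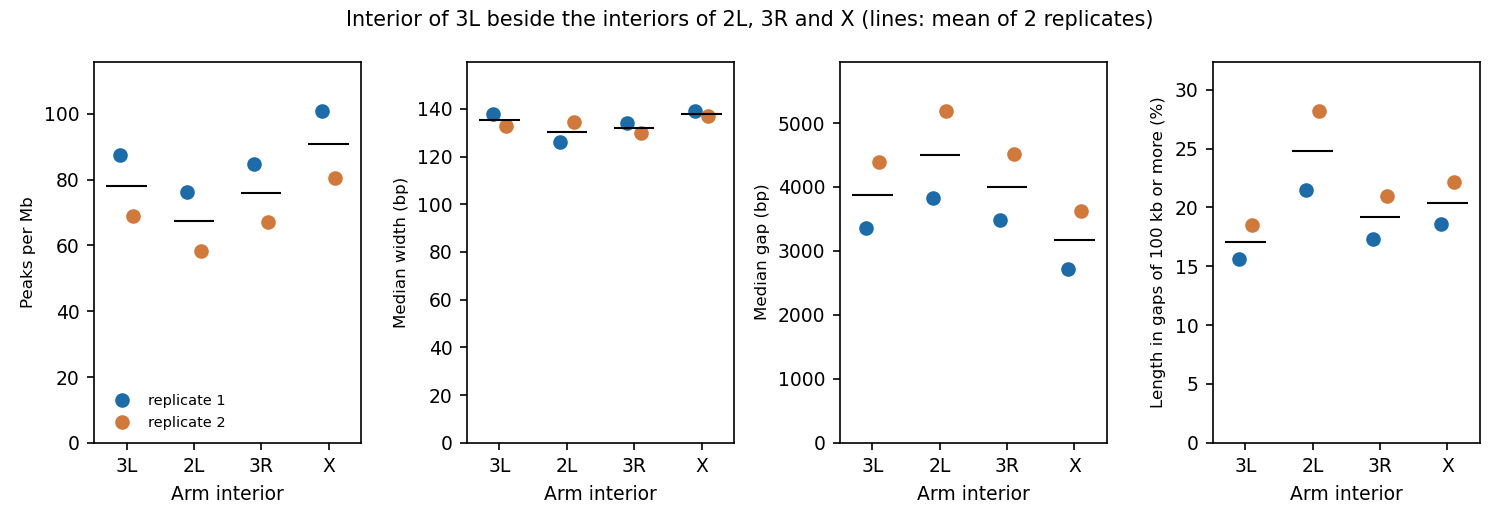
Points give the value of each replicate list and lines the mean of the 2 replicates for the interior of 3L, beside the interiors of 2L, 3R and X, for peaks per Mb, median width in bp, median gap in bp and the percentage of length in gaps of 100 kb or more. 3L lies between 2L and X in density and gap, and its share of length in long gaps, 15.6% and 18.5% in replicates 1 and 2, is the lowest of the 4 arms in each replicate.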

How the data were processed

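Per the file headers, positions are on FlyBase release 5.1, and the records name PeakSeq as the caller. Each peak has a score deposited by the authors, with no stated unit. Neither the aligner nor the caller's settings, nor whether it used the input, is given in the sources used here. There is 1 list for each MCM replicate, and 1 for the whole series, whose regions overlap peaks of both. No annotation or sequence of release 5.1 was used, so no genes are named. Members, measures and alternatives were chosen with earlier results of these data known.

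Width is end minus start plus 1, and a gap is the number of bases between neighbours. The interiors of the other arms leave out 2 Mb at each end of the span of both replicate lists, with the far end rounded down to 100 kb. Replicate values of a region are means over its peaks of that replicate. The step of an arm is the value of which the largest number of its scores are 2, 3, 4 or 5 times (68 of 2052 peaks on 3L in replicate 1 and 47 of 1617 in replicate 2). Values per replicate are summarised as mean and SD of 2 lists, and arms were compared by exact permutation, unpaired and within libraries (SciPy 1.17.1). Of the 11 measures compared between arms, 7 were added after the 4 first fixed. Named regions are the 10 highest scores, the 5 widest, the 5 longest runs, the 5 longest empty zones, the 5 most isolated, the 3 fullest windows of 100 kb with ties of the last, the 3 fullest and emptiest of 1 Mb, and the 3 highest and 3 lowest replicate score ratios. Functions for gaps, runs, zones and overlap were tested on simulated data.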

Additional observations from a re-analysis of the deposited data

How the results depend on the processing

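Of 74 alternative values, 46 were labelled as unchanged, by rules that differed between results. A ratio had to keep its direction, and a density, width or gap had to stay within the SD. Shares had to stay within their counting interval, and numbers of runs and zones within a set factor. Some labels were fixed in advance, since a single replicate always lies within the SD of a mean over both, and pairing leaves a ratio as it is. The tally is therefore no measure of robustness. Restricting each list to the 50% with the higher scores left 37.3 peaks per Mb, a median width of 199.5 bp and a median gap of 10706 bp. It turned the density ratio of 3L to the other interiors to 0.946. The cut was at the median score of each whole list and was not adjusted for the step, which differed between arms. Merging peaks within 1 kb gave 56.3 peaks per Mb, a width of 183 bp and a gap of 7903 bp. With peaks of at least 20 bp the median width was 145 bp and the width ratio turned to 0.998. Against single arms, the density ratio was 0.861 and the width ratio 0.982 for X, the gap ratio 0.864 for 2L and 0.969 for 3R, and the score ratio 1.00 for 3R. Leaving out a replicate in turn moved the width ratio between 0.993 (without replicate 1) and 1.04, the density between 69.0 and 87.4 peaks per Mb, and the number of runs to between 61 and 89 in the list left. The cause of these changes was not tested.

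Sharing depended on the rule. With at least 50% of the peak covered it was 55.2% for replicate 1 and 82.0% for replicate 2, with peaks of at least 20 bp 71.9% and 89.8%, and in the 50% with the higher scores 81.0% and 91.5%. There were 15 runs at a gap limit of 2 kb, 71 at 10 kb and 3 with at least 10 regions, and 109 empty zones of at least 50 kb and 12 of at least 150 kb. Dividing scores by the step of the arm was added after the data were seen. So was the replicate block, in which 3L and the other interiors of a library are a pair. It leaves the ratios as they are (1.01 for density, 1.02 for width, 1.04 for gap and 0.975 for score) and gave an exact p of 0.5 for density, gap and score and 1.00 for width, with no p below 0.5 possible. No pairing of MCM with the input was made. Depth is unknown, so how far it limits narrow and unshared peaks cannot be given.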

Other observations

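Some MCM peaks of the interior of 3L scored very high in 1 extraction and had no partner in the other; they were picked out after their values were seen. In replicate 1 the second highest score of the interval, 8.87, belonged to 3L:7794801-7794809, which is 9 bp wide and lies 3.73 kb from the nearest peak of replicate 2. The third highest, 8.14, was 3L:3417227-3417347, at 121 bp and 501 bp from a replicate 2 peak, and the sixth, 6.93, was 3L:6256120-6256132, at 13 bp and 258 bp from one. In replicate 2 the highest score of the interval, 8.63, belonged to 3L:16596138-16596203, at 66 bp and 6.12 kb from the nearest peak of replicate 1. It stood above 3L:8660948-8661289, the replicate 2 peak of the region that led the whole-series list, whose score was 7.92. The third highest, 7.31, was 3L:15227785-15227814, at 30 bp and only 56 bp from a replicate 1 peak. Among the 100 highest-scoring peaks of the interval, 20 were unshared in replicate 1 and 8 in replicate 2, and 8 and 4 were under 20 bp wide. Unshared peaks were less frequent there than over the whole interval, where they numbered 582 of 1791 (32.5%) in replicate 1 and 189 of 1415 (13.4%) in replicate 2. Peaks under 20 bp made up 6.87% and 7.42% of the whole interval in replicates 1 and 2.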
